A study of Rattus norvegicus with 9 samples.

Results

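Cultured bone-forming cells carried messenger RNA for the whole route from acetyl-CoA to cholesterol and for the synthesis of fatty acids, and 33 of these genes are described here. They were taken by gene symbol from the 19085 genes listed, and all 33 were among the 13256 genes with enough reads to be tested. By role, 8 encode enzymes of the mevalonate route up to squalene, 10 encode enzymes from squalene to cholesterol, 6 belong to SREBP regulation and sterol transport, 4 make fatty acids and 5 elongate or desaturate them. The list was drawn up by pathway, not by a threshold on the measured values, although earlier results of these data were known when it was proposed.

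The RNA came from first-passage osteoblasts isolated from the calvaria of male Sprague-Dawley rats 24 hours old, although the labels also give the knee as the tissue. All groups were kept for 7 days in osteogenic induction medium that held β-glycerophosphate at 10 mM, ascorbic acid at 50 µg/mL, dexamethasone at 1e-07 M and 10% serum. The control group (3 libraries) received this medium alone, the thrombin group (3 libraries) received thrombin at 20 U/mL as well, and the PD03 group (3 libraries) received thrombin at 20 U/mL together with PD0325901 (PD03), which inhibits the kinase MEK. PD03 was never given without thrombin, and its concentration is 0.1 µM in the study's design, whereas the labels give 0.1 mM in a protocol for short treatments. The study asked how thrombin changes differentiating osteoblasts and whether the inhibition of MEK reverses this.

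Cells build cholesterol by joining acetyl-CoA into mevalonate, turning mevalonate into the isoprenoid squalene, and closing and trimming squalene into sterol rings. The transcription factors encoded by Srebf1 and Srebf2 switch on these enzymes and those of fatty acid synthesis when sterols are scarce, and Scap and the Insig proteins hold them in the endoplasmic reticulum when sterols are plentiful. Dividing cells draw on both routes for new membranes, and osteoblasts also use isoprenoids from the mevalonate route to anchor small GTPases.

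The SREBP proteins act at promoters together with the factors NF-Y and Sp1, so the promoters of the members were searched for the letters of these sites. RefSeq promoter windows of the GRCr8 build were found for 26 members, and none was found for Elovl6, Pmvk, Stard4, Fasn, Sqle, Fdft1 and Acaca. The NF-Y motif CCAAT, counted on both strands, was present in at least 1 window of 19 of the 26 members (73.1%) and of 39.6% of all 27457 genes, whose windows have the same length. The Sp1 motif GGGCGG was present in 21 of the 26 members (80.8%) and 36% of all genes, and the E-box CACGTG in 4 members (15.4%) and 7.08% of all genes. The core of the sterol response element, written TCACNCCAC, was in no window of the 26 members and in those of 1.25% of all genes. A shorter form of it, CACNCCAC, was chosen after this result was seen and was in 5 of the 26 (19.2%) and in 6.25% of all genes. These are counts of letters and do not show binding. The 27457 genes were counted whether or not these cells expressed them, while all members were expressed. The differences in share are therefore not read as particular to the members.

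Below are the 150 bases before the start of 4 sterol genes, which were chosen because Mvd, Msmo1 and Idi1 were higher with thrombin and lower with PD03 while Tm7sf2 went the other way. Each is written 5′ to 3′ on the strand of its gene in GRCr8, with CCAAT or its reverse complement ATTGG in capitals. The Mvd window lies at chr19:67414975-67415124 on the minus strand, the Msmo1 window at chr16:29746963-29747112 on the plus strand, the Idi1 window at chr17:66547525-66547674 on the minus strand and the Tm7sf2 window at chr1:212789542-212789691 on the minus strand.
Mvd: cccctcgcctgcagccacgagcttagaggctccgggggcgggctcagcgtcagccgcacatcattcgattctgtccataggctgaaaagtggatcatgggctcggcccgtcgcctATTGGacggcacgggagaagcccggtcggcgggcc
Msmo1: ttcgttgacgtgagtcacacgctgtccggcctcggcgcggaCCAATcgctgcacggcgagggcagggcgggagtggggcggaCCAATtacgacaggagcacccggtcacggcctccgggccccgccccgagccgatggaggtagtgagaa
Idi1: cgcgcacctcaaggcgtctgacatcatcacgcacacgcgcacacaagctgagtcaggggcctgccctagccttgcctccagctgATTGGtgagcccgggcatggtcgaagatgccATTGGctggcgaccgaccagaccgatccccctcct
Tm7sf2: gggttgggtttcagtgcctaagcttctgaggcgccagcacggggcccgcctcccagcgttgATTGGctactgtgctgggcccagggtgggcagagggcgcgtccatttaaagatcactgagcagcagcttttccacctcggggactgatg

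The stretches of Msmo1 and Idi1 held the motif 2 times each, and those of Mvd and Tm7sf2 held it once. The 4 genes were chosen by their direction of change, and most members hold the motif, so nothing on direction is read from it.

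The libraries held 15447832 to 19841468 counts each, of which the members took 0.718 to 0.745% in the control group, 0.752 to 0.778% in the thrombin group and 0.621 to 0.640% in the PD03 group. A member had between 126 and 15899 counts in a library. Counts are given as CPM, which brings the libraries to a common size by TMM scaling, a method that takes most genes as unchanged. Col1a1, the main collagen of bone, took 4.18 to 5.05% of the counts without PD03 and 6.78 to 6.96% with it. Of the markers of the osteoblast, Col1a1, Col1a2, Sparc, Runx2 and Spp1 were present. Alpl lay between 0.345 and 3.11 CPM as a group mean, and the late markers Bglap, Ibsp and Dmp1 lay at or below 0.16 CPM. The 3 libraries of a group are independent samples by the study's methods, which do not say whether they came from separate cell isolations. The p-values set a difference between groups against the spread between libraries of a group, estimated over all 9 libraries.

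Compared per length of transcript by FPKM in the control group, the members spanned a wide range of levels. Cyp51, the lanosterol demethylase, had the highest level at 192 ± 5.41 FPKM (SD, n = 3), and Hmgcs1, which makes HMG-CoA, followed at 173 ± 4.37 FPKM. Insig1, the sterol-controlled anchor of SREBP, stood at 162 ± 4.66 FPKM and Msmo1, a methylsterol oxidase, at 159 ± 7.42 FPKM, which did not differ beyond the sum of their SDs. The lowest levels were those of Stard4 (13.1 ± 0.412 FPKM), Insig2 (9.23 ± 1.66 FPKM) and Hsd17b7 (6.08 ± 0.296 FPKM). Srebf2 was at 52.7 ± 0.890 FPKM and Srebf1 at 23.6 ± 0.164 FPKM. Of the 32 steps between neighbours in this order, 13 were larger than the sum of the neighbouring SDs. Markers of other cell types were measured beside the members, and several moved with the groups. Of 11 adipocyte markers, 5 passed the filter on low counts, and Adipoq, Plin1, Fabp4, Cidec, Retn and Plin4 did not, with group means of at most 0.794 CPM. Pparg, Cebpa, Lpl and Cfd fell with thrombin (log2 fold changes -1.88, -0.60, -1.06 and -1.42), and Pparg and Lpl rose between thrombin and PD03 (1.77 and 0.67). The other tested marker, Cidea, differed by 0.34 with thrombin, which did not pass (edgeR adjusted p = 0.52). With both thresholds, 5.44% of all tested genes fell with thrombin and 9.61% rose between thrombin and PD03. Pparg and Cfd had few reads, with means of 1.22 and 1.04 CPM under control and 0.331 and 0.385 CPM under thrombin. The summed CPM of the adipocyte list was 215 to 224 under control, 107 to 111 under thrombin and 165 to 176 under PD03, of which Lpl, which other mesenchymal cells also express, made up 207, 99.6 and 158 on average. In the same order of groups, the osteoblast list summed to 65879 to 72112, 60838 to 64163 and 103160 to 106440 CPM, the cartilage list to 97.3 to 107.6, 73.3 to 79.6 and 93.9 to 101 CPM, and the osteoclast list to 148 to 157, 132 to 136 and 181 to 192 CPM. The endothelial list summed to 27.4 to 30.8, 33.6 to 35.2 and 46.7 to 52.1 CPM, and the macrophage list to 2.21 to 2.67, 1.96 to 3.26 and 2.65 to 3.43 CPM. Most of the osteoblast, cartilage and osteoclast sums came from Col1a1, Col2a1 (84.4, 49.2 and 56.4 CPM on average) and Ctsk (129, 94.7 and 164 CPM). The osteoclast markers Ocstamp and Dcstamp had at most 1 count in a library and were not tested. Other markers of these lists took other courses, such as Runx2 (42.8, 51.1 and 32.1 CPM) and Spp1 (63.7, 185 and 53.1 CPM). Sox9 (7.68, 14.3 and 16.2 CPM) and Mmp9 (14.6, 30.9 and 12.7 CPM) were further cases. A sum thus does not stand for its whole list, and the part of these cell types in the results was not tested.

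**Figure D1:**
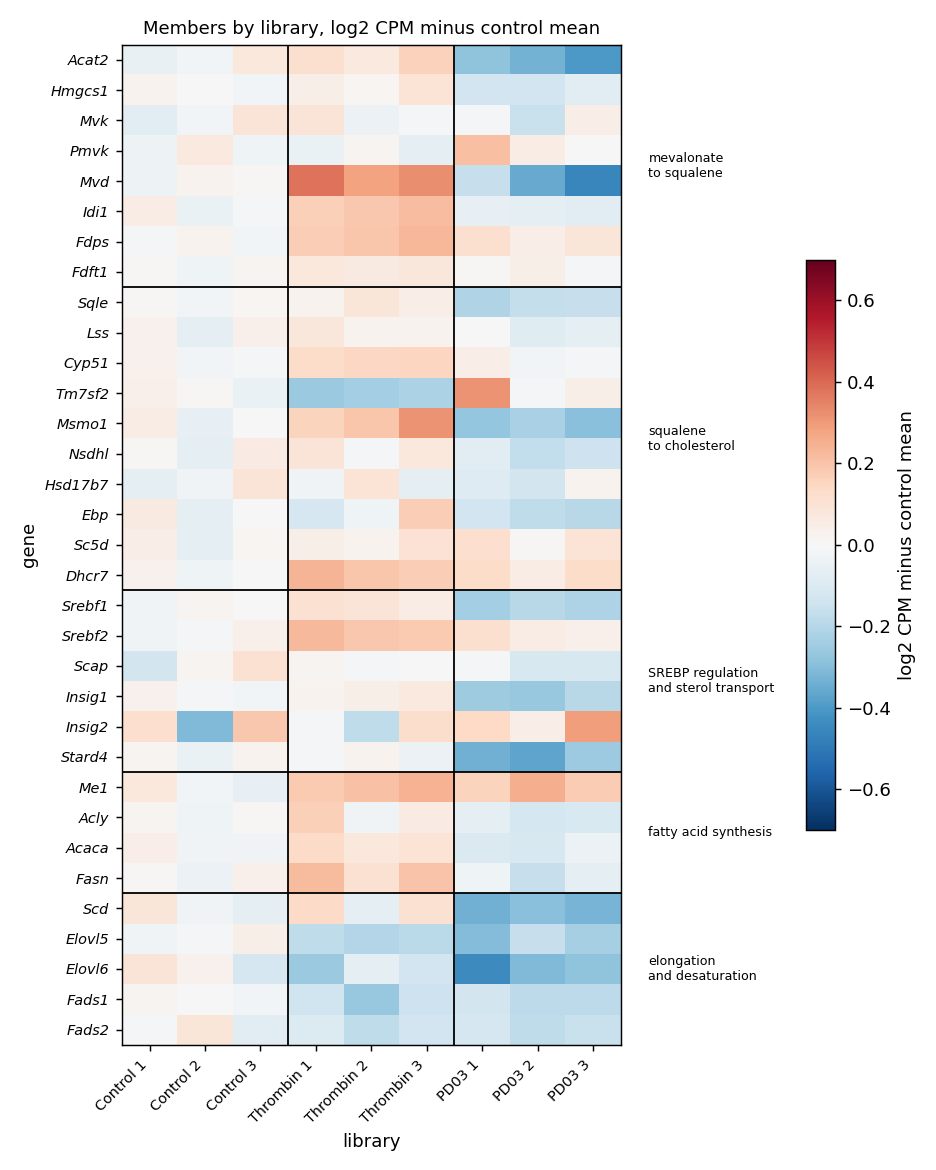
Each cell gives a member's log2 CPM in 1 library minus its mean in the 3 control libraries (color scale, log2), with genes in rows ordered by role and the 9 libraries in columns. Mvd stands out with the darkest red in the thrombin libraries and dark blue in the PD03 libraries. Tm7sf2 is blue in the thrombin libraries and clearly red only in PD03 replicate 1. The elongation and desaturation genes are blue in nearly all thrombin and PD03 libraries.

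Between thrombin and control, the members differed little in size. With an adjusted p under 0.05 in edgeR's quasi-likelihood test and a log2 fold change beyond 0.58 in either direction, the thresholds of the study, none was called higher (2.62% of all tested genes were) and none lower (5.44%). With the adjusted p alone, 10 of 33 rose, which is 30.3% beside 14.1% of all tested genes, and 4 of 33 fell, which is 12.1% beside 14.6%. The median log2 fold change of the members was 0.05, and that of all tested genes was -0.01. In whole cultures like these, fewer cells of a type and less RNA per cell cannot be told apart. The log2 fold changes of the members ranged from -0.24 (Tm7sf2) to 0.33 (Mvd), and they are given with their SE below.

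Between PD03 and thrombin, the members were mostly lower. With both thresholds, 1 member (Mvd) was called lower (6.31% of all tested genes were) and none higher (9.61%). With the adjusted p alone, 20 of 33 fell, which is 60.6% beside 24.5% of all tested genes, and 1 rose (Tm7sf2), which is 3.03% beside 25.3%. The median log2 fold change was -0.13 over the members and 0.01 over all tested genes. Both comparisons use the same thrombin libraries, so they are not independent of each other.

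Between PD03 and control, 2 groups that differ in both agents, no member was called higher (4.9% of all tested genes were) or lower (4.07%) with both thresholds. With the adjusted p alone, 16 of 33 fell, which is 48.5% beside 20.2% of all tested genes, and 1 rose (Me1), which is 3.03% beside 19.7%. The median log2 fold change was -0.09, against 0.00 over all tested genes. For these 16 members the PD03 group lay below the cells that had received neither agent. The PD03 counts depended on the scaling. With library totals, which moved the median of all genes to -0.09 against thrombin and -0.12 against control, 27 and 24 members fell beside 34.5% and 34.4% of all tested genes, while the median of the members stayed below that of all genes by as much as before (-0.14 and -0.08).

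Most genes of cell division were higher with thrombin, and all of those listed were lowest with PD03. Of 15 proliferation genes (Mki67, Top2a, Pcna and others), 12 rose with thrombin and none fell, beside 14.1% and 14.6% of all tested genes. All 15 fell between thrombin and PD03 (24.5% of all tested genes did), and all 15 were lower with PD03 than in the control group (20.2%). Their median log2 fold changes were 0.21, -0.65 and -0.47 in these comparisons. Their summed CPM was 1720 to 1724 under control, 1973 to 1992 under thrombin and 1256 to 1296 under PD03. The part of cell division in the changes of the members was not tested.

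**Figure D2:**
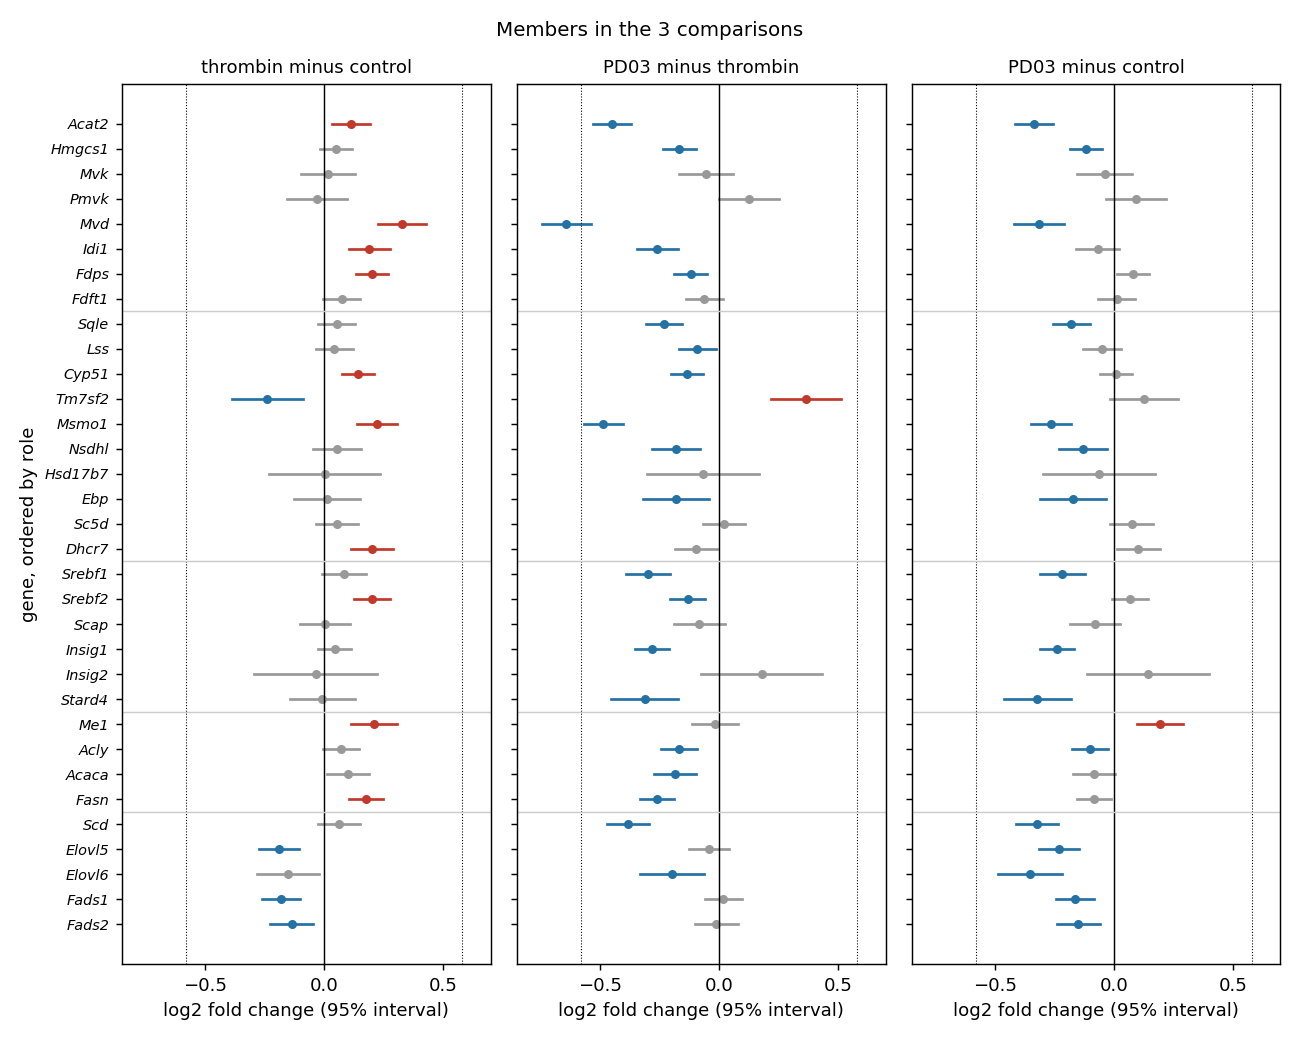
Points give the log2 fold change of each member in the 3 comparisons, with bars for the 95% interval, red for a rise and blue for a fall at an adjusted p under 0.05, grey otherwise, and dotted lines at an absolute log2 fold change of 0.58. Only Mvd reaches the dotted line, in PD03 against thrombin, where 20 members are blue and 1 is red.

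Among the 8 genes from acetyl-CoA to squalene, 4 rose with thrombin (14.1% of all tested genes did) and none fell (14.6%), and 5 fell (24.5%) and none rose (25.3%) between thrombin and PD03. Mvd (ENSRNOG00000013376), which decarboxylates mevalonate diphosphate to isopentenyl diphosphate, had 129, 135 and 133 CPM in the control libraries, 172, 161 and 166 CPM in the thrombin libraries and 119, 104 and 96.6 CPM in the PD03 libraries. The 3 groups did not overlap, with thrombin highest and PD03 lowest. The log2 fold change was 0.33 ± 0.050 (SE) for thrombin against control (adjusted p = 1.1e-06 by edgeR), -0.64 ± 0.051 for PD03 against thrombin (2.8e-14) and -0.31 ± 0.051 for PD03 against control (2.7e-06). The PD03 libraries of Mvd were spread from 96.6 to 119 CPM, and without PD03 replicate 3 the log2 fold change against thrombin was -0.58 (adjusted p = 3.2e-12), just under the fold threshold. Mvd had the largest difference of the 33 members between thrombin and control and between PD03 and thrombin, and its fall against thrombin kept its adjusted p under 0.05 without any 1 library.

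Acat2 (ENSRNOG00000019189), the cytosolic enzyme that joins acetyl-CoA units, had 298, 305 and 325 CPM in the control libraries, 334, 325 and 345 CPM in the thrombin libraries and 255, 246 and 234 CPM in the PD03 libraries. The PD03 libraries lay below all others, while control and thrombin overlapped. Its log2 fold change was -0.45 ± 0.040 for PD03 against thrombin (edgeR adjusted p = 8.5e-13), -0.34 ± 0.040 for PD03 against control (3.3e-09) and 0.11 ± 0.039 for thrombin against control (0.026). The small rise with thrombin did not pass with library totals or upper-quartile scaling (edgeR adjusted p = 0.058 and 0.061), nor without control replicate 1, control replicate 2 or thrombin replicate 3 (log2 fold change 0.09 to 0.11, edgeR adjusted p = 0.094 to 0.15). With FPKM plus 1 or plus 0.1, this rise did not pass either (limma adjusted p = 0.22 and 0.24).

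Idi1, which isomerises isopentenyl diphosphate, was at 117 ± 3.87, 133 ± 2.13 and 111 ± 0.858 CPM (SD, n = 3) under control, thrombin and PD03. On the log2 scale it rose by 0.19 with thrombin and fell by 0.26 between thrombin and PD03, and its PD03 and control levels differed by -0.07 ± 0.044 (edgeR adjusted p = 0.23). Fdps, which makes farnesyl diphosphate and is the target of the nitrogen bisphosphonates used against bone loss, was at 461 ± 7.47, 529.5 ± 10.9 and 487 ± 11.1 CPM in the same order. It rose by 0.20 with thrombin and fell by 0.12 between thrombin and PD03 on the log2 scale. Hmgcs1 was at 616 ± 9.90, 637 ± 18.3 and 567 ± 12.4 CPM, and it fell by 0.17 against thrombin and by 0.12 against control with PD03, with a log2 difference of 0.05 ± 0.034 between thrombin and control that did not pass (edgeR adjusted p = 0.31). All 3 genes were thus lower with PD03 than with thrombin.

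The other 3 genes of this stretch passed in no comparison. Mvk and Pmvk phosphorylate mevalonate in turn, and their log2 fold changes for PD03 against thrombin were -0.05 ± 0.057 (edgeR adjusted p = 0.44) and 0.12 ± 0.062 (0.096). Fdft1, which makes squalene and so commits farnesyl diphosphate to sterols, differed by 0.07 ± 0.039 with thrombin (0.17) and by -0.06 ± 0.039 between PD03 and thrombin (0.19). The 95% intervals of these genes against thrombin were -0.17 to 0.06, -0.00 to 0.25 and -0.14 to 0.02 for Mvk, Pmvk and Fdft1, so each leaves room for a small change.

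Among the 10 genes from squalene to cholesterol, 3 rose and 1 fell with thrombin, beside 14.1% and 14.6% of all tested genes, and 6 fell and 1 rose between thrombin and PD03, beside 24.5% and 25.3%. Msmo1 (ENSRNOG00000032297), the oxidase that begins the removal of methyl groups from the sterol ring, had 273, 253 and 264 CPM in the control libraries, 293, 301 and 328 CPM in the thrombin libraries and 218, 226 and 215 CPM in the PD03 libraries. Its groups did not overlap and stood in the same order as those of Mvd. The log2 fold change was 0.22 ± 0.041 for thrombin against control (edgeR adjusted p = 3.1e-05), -0.49 ± 0.041 for PD03 against thrombin (2.1e-13) and -0.26 ± 0.041 for PD03 against control (1.1e-06).

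Tm7sf2 (ENSRNOG00000020989), a sterol reductase that acts just after Cyp51, went the opposite way. It had 38.2, 37.5 and 36.1 CPM in the control libraries, 31.2, 31.6 and 32.0 CPM in the thrombin libraries and 46.4, 37.0 and 38.3 CPM in the PD03 libraries. The thrombin libraries were the lowest and close together, and PD03 replicate 1 stood above the other PD03 libraries, which overlapped the control group. The log2 fold change was -0.24 ± 0.073 for thrombin against control (edgeR adjusted p = 0.011), 0.36 ± 0.072 for PD03 against thrombin (4.3e-05) and 0.13 ± 0.071 for PD03 against control (0.16). With FPKM plus 0.1, the fall with thrombin did not pass (limma adjusted p = 0.066).

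Cyp51 itself had 591, 571 and 574 CPM in the control libraries, 633, 640.0 and 643 CPM in the thrombin libraries and 598, 571 and 577 CPM in the PD03 libraries. The thrombin libraries were the highest, while control and PD03 overlapped. It rose by 0.14 with thrombin and fell by 0.13 between thrombin and PD03 on the log2 scale, and it differed by 0.01 ± 0.033 between PD03 and control (edgeR adjusted p = 0.88), where scaling by library totals gave -0.11 (0.006). With FPKM plus 1 or plus 0.1, the rise of Cyp51 with thrombin did not pass (limma adjusted p = 0.065 and 0.071). Dhcr7, which reduces the ring in the last step, was at 112 ± 2.45, 128 ± 2.78 and 119.7 ± 3.74 CPM, and it rose by 0.20 with thrombin, with a difference of -0.10 ± 0.044 between PD03 and thrombin that did not pass (edgeR adjusted p = 0.06). Sqle, the epoxidase that opens the sterol branch, was at 222 ± 2.65, 229.8 ± 4.90 and 196 ± 3.87 CPM and fell by 0.23 against thrombin and by 0.18 against control with PD03.

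Nsdhl and Ebp, a dehydrogenase and an isomerase of the ring, fell with PD03 by 0.18 each against thrombin on the log2 scale, and by 0.13 and 0.17 against control. The fall of Ebp against thrombin did not pass without thrombin replicate 3 or PD03 replicate 3 (edgeR adjusted p = 0.29 and 0.069). Against control, neither the fall of Nsdhl (adjusted p = 0.08 to 0.14) nor that of Ebp (0.077 to 0.17) passed without control replicate 1, control replicate 3, PD03 replicate 2 or PD03 replicate 3. Lss, which closes squalene epoxide into lanosterol, fell by 0.09 against thrombin with an edgeR adjusted p of 0.046, and did not pass without thrombin replicate 1, thrombin replicate 3, PD03 replicate 2 or PD03 replicate 3 (adjusted p = 0.065 to 0.12). The falls of Nsdhl against control, of Ebp in both comparisons and of Lss thus lay near the threshold. Each did not pass when 1 of the libraries named for it was left out, while the fall of Nsdhl against thrombin passed without any 1 library. Sc5d, a ring desaturase, and Hsd17b7, a keto reductase, passed in no comparison, with log2 differences between PD03 and thrombin of 0.02 ± 0.044 (edgeR adjusted p = 0.73) and -0.07 ± 0.12 (0.66).

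Of the 6 genes of SREBP regulation and sterol transport, 1 rose with thrombin, a share near the 14.1% of all tested genes, and 4 fell between thrombin and PD03, beside 24.5% of all tested genes, with none in the opposite direction. Insig1 (ENSRNOG00000006859), which retains SREBP in the endoplasmic reticulum and is itself a sterol-controlled gene, had 427, 414 and 412 CPM in the control libraries, 425, 429.7 and 438 CPM in the thrombin libraries and 351, 347 and 365 CPM in the PD03 libraries. The PD03 libraries were the lowest, while control and thrombin overlapped. Its log2 fold change was -0.28 ± 0.035 for PD03 against thrombin (edgeR adjusted p = 5.8e-09), -0.24 ± 0.035 for PD03 against control (3.8e-07) and 0.04 ± 0.035 for thrombin against control (0.39).

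Srebf1, whose product mainly drives fatty acid genes, had 100.1, 103 and 102 CPM in the control libraries, 109.5, 108 and 105 CPM in the thrombin libraries and 86.3, 88.9 and 87.4 CPM in the PD03 libraries. The groups did not overlap, although the small difference between thrombin and control did not pass. The log2 fold change was -0.30 ± 0.046 for PD03 against thrombin (edgeR adjusted p = 5.1e-07), -0.22 ± 0.046 for PD03 against control (0.00017) and 0.08 ± 0.045 for thrombin against control (0.18). Srebf2, whose product mainly drives sterol genes, was at 256 ± 5.57, 294 ± 4.95 and 269 ± 7.24 CPM in control, thrombin and PD03. It rose by 0.20 with thrombin and fell by 0.13 between thrombin and PD03, and its levels with PD03 and in the control group differed by 0.07 ± 0.037 (edgeR adjusted p = 0.15).

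Stard4, a carrier of sterols between membranes, was at 34.0 ± 0.907, 33.8 ± 0.750 and 27.2 ± 1.12 CPM under control, thrombin and PD03, and it fell by 0.31 against thrombin and by 0.32 against control. Scap, the escort of SREBP to the Golgi, and Insig2 passed in no comparison, with log2 differences between PD03 and thrombin of -0.08 ± 0.052 (edgeR adjusted p = 0.19) and 0.18 ± 0.13 (0.24). Insig2 was among the lowest members, and its 95% interval against thrombin, -0.08 to 0.43, was the widest of the 33. The genes of the carrier and of Insig1 were thus lower with PD03 than in either other group, while those of Scap and Insig2 showed no difference that passed.

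**Figure D3:**
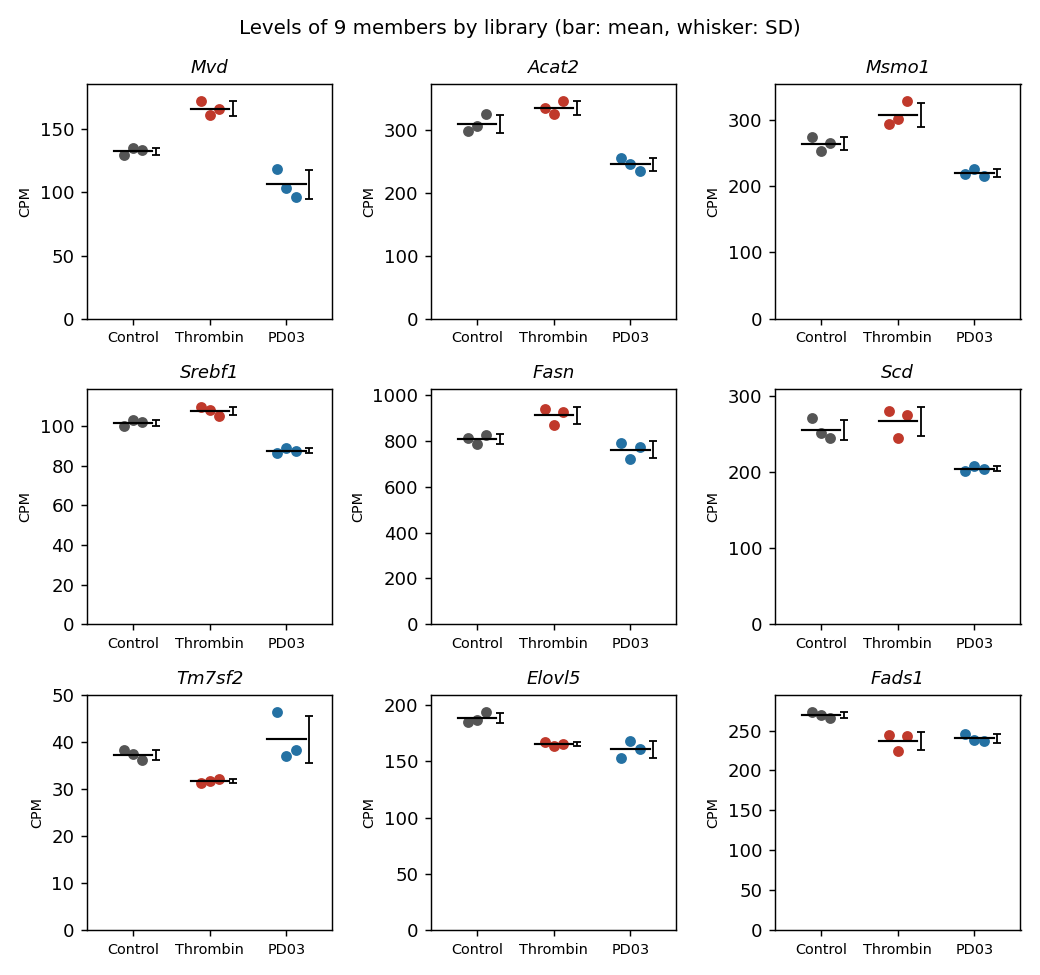
CPM of 9 members by library (points), with the group mean (bar) and SD (whisker, n = 3), each on an axis from 0. Mvd, Acat2, Msmo1, Srebf1, Fasn and Scd are lowest with PD03, Tm7sf2 is lowest with thrombin (31.2 to 32.0 CPM), and Elovl5 and Fads1 are highest in the control group.

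All 4 genes of fatty acid synthesis had a log2 fold change above 0 with thrombin, and 2 of them passed, while 3 fell between thrombin and PD03 (14.1% and 24.5% of all tested genes did). Fasn (ENSRNOG00000045636), the fatty acid synthase, had 813, 785 and 827 CPM in the control libraries, 941, 870.5 and 927 CPM in the thrombin libraries and 791, 722 and 774 CPM in the PD03 libraries. The thrombin libraries were the highest, while control and PD03 overlapped. The log2 fold change was 0.18 ± 0.036 for thrombin against control (edgeR adjusted p = 0.00014), -0.26 ± 0.036 for PD03 against thrombin (5.7e-08) and -0.08 ± 0.036 for PD03 against control (0.058). On the deposited FPKM plus 1 or plus 0.1, the rise with thrombin did not pass (limma adjusted p = 0.059 and 0.074).

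Me1, the malic enzyme that supplies NADPH, was at 89.6 ± 4.19, 104 ± 2.25 and 103 ± 3.78 CPM under control, thrombin and PD03. It rose by 0.21 with thrombin and was 0.19 above control with PD03 on the log2 scale, while its difference between PD03 and thrombin was -0.02 ± 0.048 (edgeR adjusted p = 0.82). Me1 was thus above control in both treated groups. With library totals as the scaling, PD03 differed from control by 0.08 (edgeR adjusted p = 0.2), and with FPKM plus 1 or plus 0.1 by 0.08 (limma adjusted p = 0.26 and 0.28), none of which passed.

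Acly, which cuts citrate into acetyl-CoA, was at 542 ± 8.92, 569 ± 38.3 and 506 ± 9.56 CPM in control, thrombin and PD03, and Acaca, which makes malonyl-CoA, was at 128 ± 3.74, 137 ± 2.75 and 121 ± 3.15 CPM. They fell by 0.17 and 0.18 between thrombin and PD03 on the log2 scale. Their differences between thrombin and control were 0.07 ± 0.037 (edgeR adjusted p = 0.18) and 0.10 ± 0.043 (0.081), which did not pass. Against control with PD03, Acly fell by 0.10, which did not pass without control replicate 1, control replicate 3, PD03 replicate 2 or PD03 replicate 3 (adjusted p = 0.069 to 0.08), and Acaca differed by -0.09 ± 0.044 (0.12).

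Of the 5 genes of elongation and desaturation, none rose and 3 fell with thrombin (14.6% of all tested genes fell), 2 fell between thrombin and PD03 (24.5%), and all 5 fell between control and PD03 (20.2%). Their summed CPM was 892 to 931 under control, 813 to 873 under thrombin and 776 to 787 under PD03. Elovl5, Fads1 and Fads2, which lengthen and desaturate polyunsaturated fatty acids, were the 3 that fell with thrombin.

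Elovl5 (ENSRNOG00000006331) had 185, 187 and 194 CPM in the control libraries, 167, 163 and 166 CPM in the thrombin libraries and 153, 168 and 161 CPM in the PD03 libraries. The control libraries were the highest, and thrombin and PD03 overlapped. The log2 fold change was -0.19 ± 0.041 for thrombin against control (edgeR adjusted p = 0.00036), -0.23 ± 0.042 for PD03 against control (1.3e-05) and -0.04 ± 0.042 for PD03 against thrombin (0.43). For Fads1 the control libraries were also the highest, and thrombin and PD03 overlapped. Fads1 had 273, 269 and 266 CPM in the control libraries and 244, 224 and 244 CPM in the thrombin libraries. In the PD03 libraries it had 246, 238 and 237 CPM. It fell by 0.18 with thrombin and by 0.16 with PD03 against control on the log2 scale, with 0.02 ± 0.039 between PD03 and thrombin (edgeR adjusted p = 0.73). Fads2 was at 149 ± 8.43, 135 ± 3.69 and 134 ± 2.87 CPM and fell by 0.14 and 0.15 in the same comparisons. The fall of Fads2 with thrombin did not pass without control replicate 2 (log2 fold change -0.09, edgeR adjusted p = 0.2) or thrombin replicate 2 (-0.11, 0.11), nor with FPKM plus 1 or plus 0.1 (limma adjusted p = 0.064 and 0.078), and that with PD03 did not pass without control replicate 2 (-0.11, 0.072).

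The desaturase and the elongase of saturated fatty acids were instead lowest with PD03. Scd (ENSRNOG00000013552), which makes oleate from stearate, had 271, 251 and 245 CPM in the control libraries, 280.4, 244 and 275 CPM in the thrombin libraries and 202, 208 and 204 CPM in the PD03 libraries. The PD03 libraries lay below all others and close together, while control and thrombin overlapped. Its log2 fold change was -0.38 ± 0.044 for PD03 against thrombin (edgeR adjusted p = 9.4e-10), -0.32 ± 0.044 for PD03 against control (8.6e-08) and 0.06 ± 0.044 for thrombin against control (0.33). Elovl6, which lengthens palmitate, was at 51.5 ± 3.76, 46.4 ± 3.24 and 40.5 ± 2.35 CPM in control, thrombin and PD03. It fell by 0.20 against thrombin and by 0.35 against control with PD03, and its fall against thrombin did not pass without thrombin replicate 2 or PD03 replicate 1 (edgeR adjusted p = 0.073 and 0.077).

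Scd has a close paralog, Scd2, with which it can share reads, so its values are less certain than those of the other members. Scd2 was at 3127, 3476 and 3036 CPM under control, thrombin and PD03, and its log2 fold change for PD03 against thrombin was -0.20 ± 0.029. It was named after its values were seen. In the RefSeq genes of GRCr8, 10 of the 33 members overlap another gene and 3 overlap a protein-coding one (Idi1 with Wdr37, Srebf1 with Rai1 and Acaca with C10h17orf78), and reads of such pairs cannot be told apart without strand.

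Put together by their calls in the 3 comparisons, 3 members (Acat2, Mvd and Msmo1) rose with thrombin and fell below control with PD03, and 5 (Idi1, Fdps, Cyp51, Srebf2 and Fasn) rose with thrombin and fell against thrombin without passing against control. The most common course, in 10 members, was a fall with PD03 against both other groups with no difference that passed between thrombin and control. A further 2 (Lss and Acaca) fell against thrombin alone. The 3 polyunsaturated fatty acid genes were lower in both treated groups, Tm7sf2 fell with thrombin and rose again with PD03, Me1 was higher in both treated groups, and Dhcr7 rose with thrombin alone. The other 7 passed in no comparison. These courses come from comparisons that share libraries, and a difference between courses was not tested. The share of all tested genes that took each course was not counted, so no course is read as particular to the members.

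Among genes outside the 33 members, Acss2, which makes acetyl-CoA from acetate, had 72.6, 70.5 and 66.8 CPM in the control libraries, 58.9, 58.2 and 57.8 CPM in the thrombin libraries and 97.8, 92.7 and 92.1 CPM in the PD03 libraries. The groups did not overlap, with PD03 highest and thrombin lowest. Its log2 fold change was -0.26 ± 0.053 for thrombin against control (edgeR adjusted p = 0.00012) and 0.69 ± 0.052 for PD03 against thrombin (5.9e-15). Acss2 was thus highest with PD03, the group in which Acly, the other source of cytosolic acetyl-CoA, was lowest.

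Genes of sterol efflux and storage, many of which are targets of the oxysterol receptor LXR, were mostly lower with thrombin. Of 12 such genes, 1 rose and 8 fell with thrombin (14.1% and 14.6% of all tested genes did), and 6 rose and 1 fell between thrombin and PD03 (25.3% and 24.5%), with medians of -0.27 and 0.33 on the log2 scale. Abca1, which exports cholesterol, had 125, 124 and 122 CPM in the control libraries, 41.7, 40.4 and 38.4 CPM in the thrombin libraries and 146, 148 and 158 CPM in the PD03 libraries, with log2 fold changes of -1.62 ± 0.051 for thrombin against control (edgeR adjusted p = 2.4e-27) and 1.91 ± 0.051 for PD03 against thrombin (1.8e-30). The thrombin libraries were far below both other groups, by more than any member differed. Apoe, a carrier of lipids, was at 83.7 ± 0.460, 39.6 ± 1.46 and 63.8 ± 0.720 CPM with log2 fold changes of -1.08 ± 0.055 and 0.69 ± 0.056 in the same comparisons. Ch25h, which makes an oxysterol, was at 5.53 ± 1.51, 1.81 ± 0.527 and 2.40 ± 0.674 CPM and differed by -1.61 ± 0.24 with thrombin and by 0.41 ± 0.27 between PD03 and thrombin, of which the second did not pass (edgeR adjusted p = 0.2). Cyp27a1, another oxysterol enzyme, was at 2.74 ± 0.157 CPM with thrombin and 4.24 ± 0.804 CPM with PD03 (0.62 ± 0.22, edgeR adjusted p = 0.015), which did not pass without thrombin replicate 1 (0.56, adjusted p = 0.052) or PD03 replicate 2 (0.47, 0.12), nor with FPKM plus 1 or plus 0.1 (limma adjusted p = 0.057 and 0.085). Abcg1, also an exporter, did not follow Abca1. It was at 4.56 ± 0.208, 3.63 ± 0.366 and 0.818 ± 0.441 CPM under control, thrombin and PD03, with log2 fold changes of -2.10 ± 0.27 for PD03 against thrombin and -2.42 ± 0.27 for PD03 against control (edgeR adjusted p = 1.6e-08 and 4.7e-10).

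**Figure D4:**
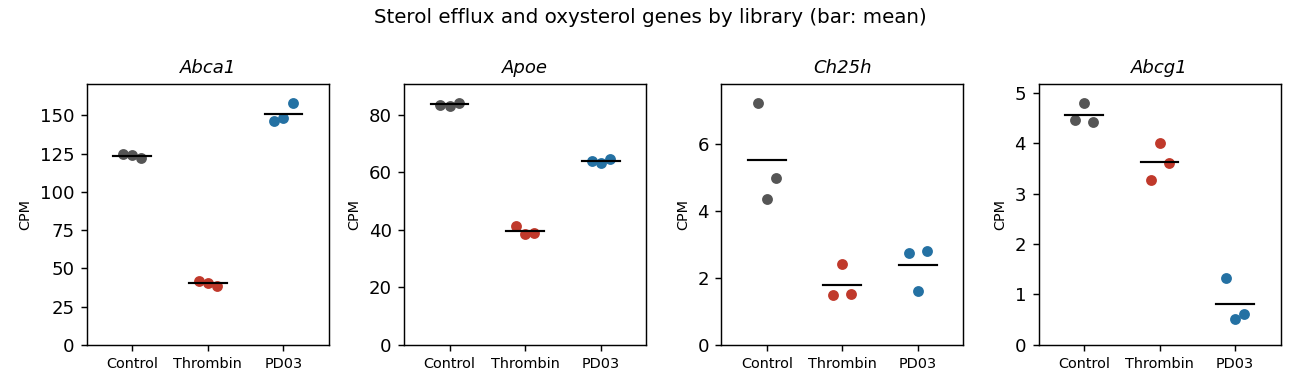
CPM of 4 genes of sterol efflux and oxysterol synthesis by library (points) with the group mean (bar), each on an axis from 0. Abca1, Apoe and Ch25h are lower in all 3 thrombin libraries than in all 3 control libraries, and Abcg1 is lowest in the PD03 libraries (0.518 to 1.32 CPM).

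**Figure D5:**
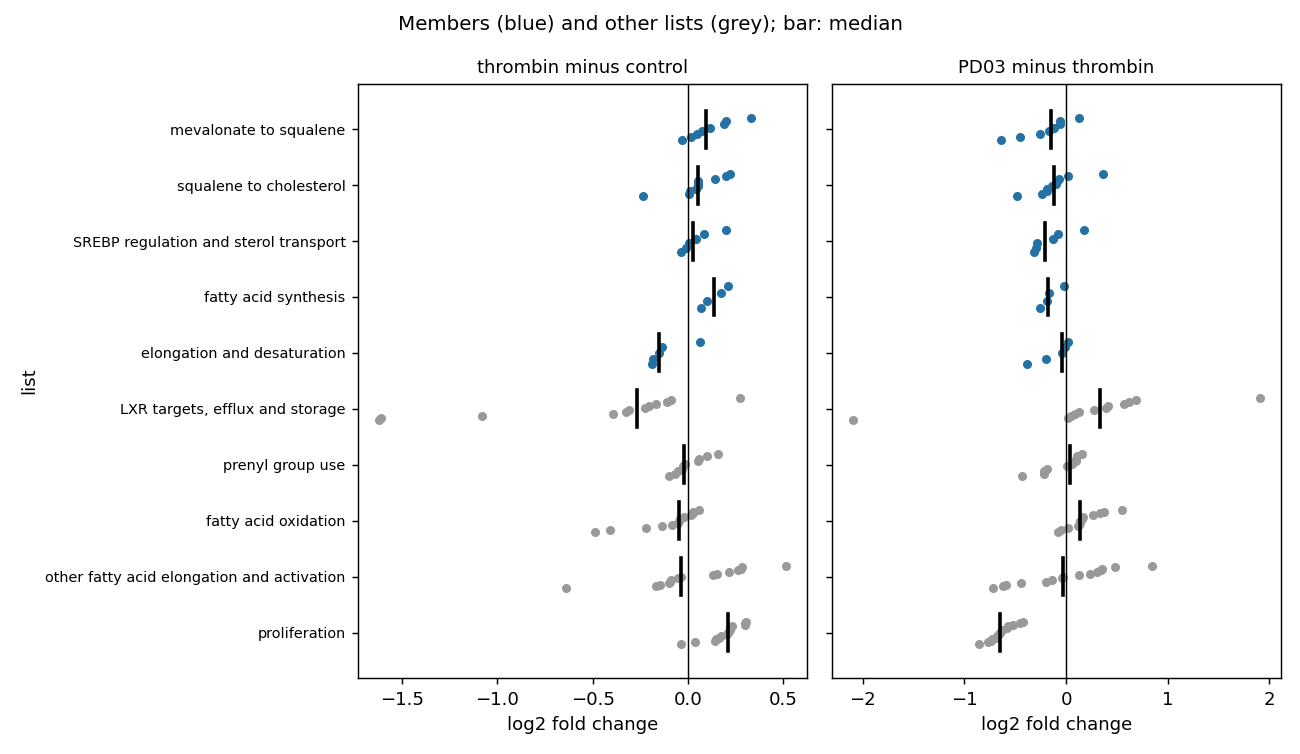
Log2 fold changes of single genes (points) and their median (bar) for the 5 role groups of members (blue) and 5 other lists (grey), for thrombin against control and PD03 against thrombin, on axes of different range. The medians of 4 of the 5 member groups are above 0 on the left and those of all 5 are below 0 on the right, while the efflux list has medians of -0.27 and 0.33 and the proliferation list of 0.21 and -0.65.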

How the data were processed

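Messenger RNA was sequenced by the authors in 9 libraries. By the paper, reads were trimmed with fastp, aligned with HISAT2 to Rnor_6.0 and counted with featureCounts, whereas the submitters' processing notes name HISAT2, HTSeq 0.13.5 and mRatBN7.2. The annotation release was, like the strandedness, not given in the sources used here, and the library kit does not mark strand. The authors deposited raw counts and FPKM values per gene and library. The counts were tested, and the FPKM, which the authors scaled by library, served for levels between genes and as an alternative.

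R 4.3.3 with edgeR 4.0.16, limma 3.58.1 and DESeq2 1.42.0 was used, and Python 3.11.15 with matplotlib 3.10.9. Genes were kept by filterByExpr with a minimum count of 10, libraries were scaled by TMM, and 1 quasi-likelihood model over the 9 libraries gave 3 comparisons, with Benjamini-Hochberg adjustment over all 13256 genes. Errors of log2 fold changes are SE, and intervals are at 95%. Libraries of a group differed beyond counting noise (ratio of chi-square to its degrees of freedom, 1.81 to 3.88). The script was tested on simulated data. The members and lists were chosen with earlier results of these data known, so no test was run over a list. Every member was named, those of other lists only when called with both thresholds, and markers only as defining markers. A few genes outside the members are not reported here. Alternatives covered scaling, filter, tool, fold threshold, pseudocount, replicate block and each library left out.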

Additional observations from a re-analysis of the deposited data

How the results depend on the processing

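The median log2 fold change of the members kept its sign in all 3 comparisons under every alternative that gave one, and lay at 0.03 to 0.07 between thrombin and control. The changes were small, and 3 libraries a group limit what can be shown. The biological coefficient of variation was 4.28%, between libraries for which separate cell isolations are not stated. Called counts depended on the fold threshold. Without one, 10 members rose and 4 fell between thrombin and control, 1 rose and 20 fell between PD03 and thrombin, and 1 rose and 16 fell between PD03 and control. Between PD03 and thrombin, 2 members were called lower with library totals, 0 with a log2 fold above 1, 0 with a test against the threshold (edgeR glmTreat, where 20 members passed the adjusted p alone) and 2 with FPKM plus 0.1.

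Scaling by library totals moved the median of all genes by about as much as that of the members. The median of the members for PD03 against thrombin was then -0.23 with library totals, -0.23 with FPKM plus 1 and -0.23 with FPKM plus 0.1, and for PD03 against control -0.20, -0.20 and -0.20. With library totals, Fdft1 (-0.10, adjusted p = 0.025) and Cyp51 (-0.11, 0.006) fell between PD03 and control, opposite in sign to their values of 0.01 and 0.01. Members higher in PD03 than in control numbered 0 with library totals, 2 with DESeq2 and 2 with limma voom (Me1 and Fdps in both), and 0 with FPKM plus 1 or plus 0.1. Members that fell with thrombin numbered 2 with FPKM plus 0.1.

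Leaving out 1 library gave 1 to 2 members higher (2 without PD03 replicate 3, where Pmvk passed) and 0 to 1 called lower (0 without PD03 replicate 3) between PD03 and thrombin, and a median of -0.11 (without control replicate 2) to -0.080 (without PD03 replicate 2) between PD03 and control. Replicate numbers did not pair the libraries, with correlations of -0.046 to 0.052 between deviations of the same number. With the replicate block, 10 rose and 4 fell, 1 rose and 20 fell, and 1 rose and 17 fell in the 3 comparisons, with Fasn added between PD03 and control (-0.08, adjusted p = 0.029). Calls were lost elsewhere too. With DESeq2, those of Nsdhl, Ebp and Acly between PD03 and control were lost (adjusted p = 0.055, 0.083 and 0.053). With upper-quartile scaling or a mean count of at least 50, Lss did not pass between PD03 and thrombin (edgeR adjusted p = 0.091 and 0.052). With FPKM plus 0.1, Acat2, Cyp51, Tm7sf2, Fasn and Fads2 did not pass between thrombin and control (limma adjusted p = 0.24, 0.071, 0.066, 0.074 and 0.078).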

Other observations

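Genes that burn fatty acids were counted beside those that make them. Of 13 genes of fatty acid oxidation tested, none rose and 2 fell with thrombin, beside 14.1% and 14.6% of all tested genes, and 6 rose and none fell between thrombin and PD03, beside 25.3% and 24.5%, at an adjusted p under 0.05 by edgeR, with a median log2 fold change of 0.14 and a range of -0.08 to 0.55. None of the 13 reached the fold threshold in any of the 3 comparisons. Of 10 genes that use or extend prenyl groups made from mevalonate, 1 rose and none fell with thrombin, and 1 rose and 4 fell between thrombin and PD03, against the same shares of all tested genes, also without reaching the fold threshold.

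Genes of fatty acid elongation and activation outside the members went both ways between thrombin and PD03. Of 15 tested, 6 rose and 5 fell with the adjusted p alone, beside 25.3% and 24.5% of all tested genes. With both thresholds, 1 rose and 3 fell, beside 9.61% and 6.31%, and only these are named here. The acyl-CoA synthetases Acsl1 and Acsl4, which activate fatty acids, differed more between PD03 and thrombin than any of the 9 fatty acid members. Acsl1 had 28.9, 27.4 and 31.6 CPM in the control libraries, 36.0, 36.1 and 34.6 CPM in the thrombin libraries and 21.4, 22.1 and 21.3 CPM in the PD03 libraries, and its log2 fold change for PD03 against thrombin was -0.72 ± 0.074 (edgeR adjusted p = 5.2e-11). Acsl4 had 109, 100.1 and 105 CPM, 118, 131 and 128 CPM and 74.2, 92.2 and 85.0 CPM in the same order, and its log2 fold change was -0.59 ± 0.056 (5.8e-12). The groups of both genes did not overlap, with thrombin highest and PD03 lowest. Elovl4, an elongase of very long fatty acids, also fell between thrombin and PD03, by 0.62 on the log2 scale from a mean of 5.33 to 3.48 CPM. Acacb, the mitochondrial acetyl-CoA carboxylase, rose in the same comparison by 0.85 from 0.979 to 1.74 CPM (edgeR adjusted p = 0.036), at 14 counts or more in each library. That rise did not pass without thrombin replicate 1 (0.74, adjusted p = 0.11), thrombin replicate 2 (0.72, 0.13) or PD03 replicate 1 (0.59, 0.23), nor with library totals (0.061), DESeq2 (0.067) or FPKM plus 1 or plus 0.1 (limma, 0.18 and 0.11).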
